A study of Mus musculus with 6 samples.

Results

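The hypoxia-inducible factors (HIF), the enzymes that control their turnover and 26 genes known to be induced at low oxygen were examined in embryonic mouse hearts. The 34 genes were chosen by name from their known roles, glycolytic enzymes being left out, and each had 1 row among the 48709 genes of the deposited table. RNA was sequenced from C57BL6/J hearts, in 3 control and 3 double knockout libraries. In controls, Rbpms and Rbpms2 were floxed on all alleles (RBPMS flox/flox RBPMS2 flox/flox) without Cre. Double knockouts carried the same floxed alleles and were positive for XML Cre, for loss of this pair of genes for RNA-binding proteins in cardiomyocytes. Controls were littermates, and both genotypes shared the floxed alleles. No group had Cre without floxed alleles, so effects of Cre and of losing the genes cannot be told apart. No source used here gives the age of the embryos or states how many animals the libraries came from, and a p-value here reflects variation among the 6 libraries, part of which may be technical.

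HIF is a pair of proteins: an oxygen-labile alpha subunit (HIF1A, EPAS1 or HIF3A) bound to the stable beta subunit ARNT. When oxygen is plentiful, the EGLN prolyl hydroxylases modify the alpha subunit, and VHL then marks it for destruction. At low oxygen the alpha subunit accumulates and the pair binds short hypoxia response elements, which raises genes for anaerobic sugar use, acid export, blood vessel growth, mitophagy and collagen modification. The embryonic heart develops at low oxygen and draws much of its energy from glycolysis. HIF itself is regulated mainly as a protein, which was not measured here.

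Of the 34 genes, 0 rose and 3 fell in the double knockout. The 3 were Car9 and Slc16a3, which encode a carbonic anhydrase and the lactate exporter MCT4, and Egln1, the prolyl hydroxylase gene. All 34 passed the filter on low values (a mean of at least 1 in at least 1 genotype), and a call is an adjusted p under 0.05 with limma over the 26747 genes tested. The 3 genes that fell are 8.82% of the 34, where 2.55% of all genes tested fell and 2.31% rose, 4.86% together. Among well-expressed coding genes (protein-coding, mean of 50 or more), 4.74% fell and 3.57% rose. At an unadjusted p under 0.05, 2 of the 34 lay higher and 8 lower, 29.4% together. The same held for 28.3% of the well-expressed coding genes (1569 higher and 1799 lower of 11913) and 18.7% of all genes (9.72% higher and 9% lower). The median log2 fold change of the 34 was -0.14, and 24 of them lay below 0. Over all genes tested the median was 0.02, and 48.1% lay below 0. For the well-expressed coding genes the median was -0.01, and 52.5% lay below 0. With both directions together, the share with a small unadjusted p was thus close to that of the well-expressed coding genes. The directions were less alike: 8 of the 10 such genes among the 34 lay lower, against 1799 of 3368 well-expressed coding genes. Without the robust option of the moderation, 2 of the 34 fell and 0 rose, against 0.77% and 0.538% of all genes.

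Values below are normalised read counts, and differences are knockout minus control in log2(value + 1). Deposited totals ran from 19770390 to 20215282 per library. Control libraries had 3551 to 3956 for Rbpms and 2444 to 2716 for Rbpms2. Knockout libraries had 670 to 721 and 1257 to 1676, so both targeted genes went with their labels. The libraries numbered 3 had a male pattern (Xist at 6 and 20, against 19501 to 25229 elsewhere), so at least 2 sources of tissue underlie each genotype, and each result was also computed without both of them. Heart muscle markers were abundant. The summed level of 8 cardiomyocyte markers was 607903 to 673911 in controls and 485406 to 539656 in knockouts, and 2 of the 8 fell (Myh6 and Actc1). Summed over 4 smooth muscle markers, the ranges were 13223 to 14494 and 5961 to 9498, and 2 of the 4 fell (Cnn1 and Smtn). Most of that sum came from Cnn1 (means of 5238 in controls and 1569 in knockouts) and Tagln (6914 and 4708). Myh11 was near the limit of detection, with means of 19.7 and 12 (adjusted p = 0.300). Which cells of the heart gave these RNAs, cardiomyocytes included, was not measured, so this sum need not reflect smooth muscle cells. The ranges overlapped for endothelial (1 of 7 rose), fibroblast (0 of 7 called), epicardial (0 of 6), pericyte (0 of 5), leukocyte (1 of 6 rose), neural (0 of 4) and handling genes (0 of 6). They also overlapped for erythroid genes, at 48095 to 132187 and 100415 to 142526, where 0 of 9 passed but all 9 lay above 0. The 4 liver markers summed to 12 to 21 in controls and 18 to 24 in knockouts (0 of 3 tested called), with Alb at 0 in all controls. The 2 lung markers, Sftpc and Nkx2-1, had at most 1 in any library. The part of these differences in the results was not tested. In whole hearts, fewer cells of a type and less RNA per cell cannot be told apart.

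The genes for the HIF subunits did not pass the test. Hif1a (chromosome 12, 73901375 to 73947530), the gene of the best-known oxygen-labile subunit, had 6117, 7084 and 6345 in the controls and 6785, 5604 and 7630 in the knockouts, each by replicate number. Knockout 2 was the lowest and knockout 3 the highest of the 6 libraries, so the genotypes overlapped throughout. The means were 6515 ± 506 and 6673 ± 1018 (SD, n = 3 libraries per genotype, as in all means below), and the 95% interval of the difference ran from -0.19 to 0.24 (adjusted p = 0.917). Epas1, the subunit gene prominent in endothelial cells, had 1110, 1078 and 1049 in controls and 1105, 1168 and 1308 in knockouts. Its difference was 0.14 ± 0.09 (SE; interval -0.04 to 0.33, adjusted p = 0.411). Here 2 of 3 knockouts lay above the controls and knockout 1 lay among them. Hif3a, whose products include inhibitory forms, had 2744, 2933 and 2609 in controls and 2955, 2021 and 2855 in knockouts. Knockout 2 was the lowest of the 6 and knockout 1 the highest, and the difference was -0.10 ± 0.12 (interval -0.36 to 0.16, adjusted p = 0.698). Arnt, the common partner, had 1473, 1513 and 1476 in controls and 1608, 1475 and 1666 in knockouts. Its difference was 0.09 ± 0.08 (interval -0.09 to 0.26, adjusted p = 0.610), with knockout 2 among the controls. The largest upper bound of the 4 intervals was thus the 0.33 of Epas1.

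Per kilobase of exon, the control level was 1105 ± 85.7 for Hif1a, 412 ± 24.3 for Hif3a, 193 ± 5.46 for Epas1 and 186 ± 2.78 for Arnt. Hif1a and Hif3a were each apart from their neighbours in every control. Epas1 (187.7 to 198.6 per kilobase) and Arnt (184.0 to 189.0) overlapped and did not differ beyond their spread. In knockouts the order by mean was the same: 1132, 389, 213.5 and 198 per kilobase.

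Of the genes that control turnover, 1 of 4 fell. Egln1 (chromosome 8, 124908587 to 124949324) encodes PHD2, the main oxygen sensor of the family, and is itself a target of HIF. It had 2469, 2606 and 2452 in controls and 2126, 1628 and 1843 in knockouts, so every knockout lay below every control. It fell from 2509 ± 84.4 to 1866 ± 249.8, a log2 difference of -0.44 ± 0.10 (interval -0.64 to -0.24, adjusted p = 0.0105). The call was lost without control 1 (adjusted p = 0.0734), control 3 (adjusted p = 0.0636) or knockout 3 (adjusted p = 0.0784), and with moderation that was not robust (adjusted p = 0.0967). Egln3, the most strongly HIF-induced of the family, had 260, 270 and 262 in controls and 248, 233 and 194 in knockouts. The genotypes did not overlap, but the difference of -0.24 ± 0.12 missed the threshold (interval -0.49 to 0.02, adjusted p = 0.301). Egln2, whose product is mostly nuclear, had 834, 931 and 958 against 874, 907 and 794, an overlap (-0.08, interval -0.27 to 0.11, adjusted p = 0.682). Vhl, the recognition subunit of the ubiquitin ligase, had 685, 659 and 639 against 615, 737 and 755. Knockout 1 was below and knockouts 2 and 3 above all controls (0.08, interval -0.12 to 0.29, adjusted p = 0.683). In controls Egln1 was highest per kilobase (698 ± 23.5), then Egln2 (324 ± 23.3), Vhl (221 ± 7.70) and Egln3 (99.2 ± 1.99), with no overlap between neighbours.

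**Figure D1:**
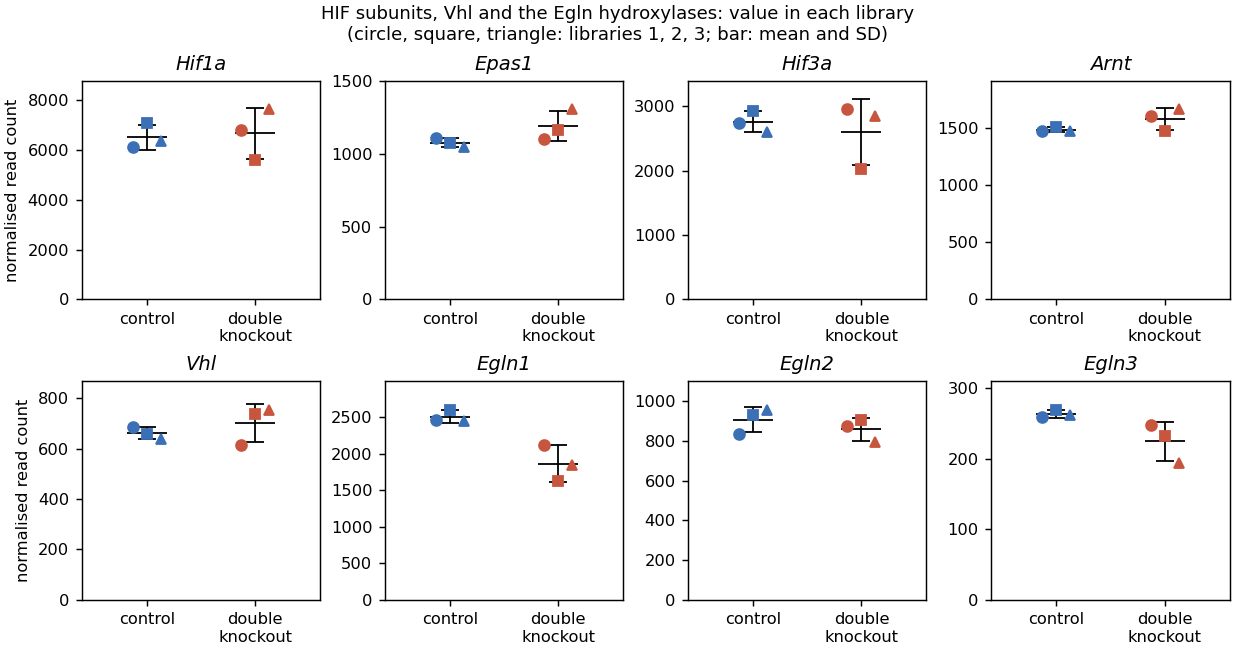
Normalised read count in each library (vertical axis) for the HIF subunit genes, Vhl and the Egln genes in controls (blue) and double knockouts (red), with mean and SD of 3 libraries. For Egln1 the knockouts (1628 to 2126) lie below the controls (2452 to 2606), while the HIF subunit genes overlap between genotypes.

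Genes of acid and lactate export held both of the other calls. Car9 (chromosome 4, 43506966 to 43513729), a membrane carbonic anhydrase that handles extracellular acid and is among the most HIF-dependent genes known, had 75, 95 and 79 in controls and 26, 35 and 35 in knockouts. Every knockout was below the lowest control, at low levels throughout. It fell by 61.4%, from 83.0 ± 10.6 to 32.0 ± 5.20 (log2 difference -1.35 ± 0.20, adjusted p = 0.000418). Gm12454 is an antisense gene that shares 214 of the 2304 exon bases of Car9. It had 46, 46 and 50 in controls and 37, 42 and 30 in knockouts, and the sources used here do not say whether counting used strand. Slc16a3 (chromosome 11, 120948480 to 120960868), the MCT4 gene, had 4312, 4303 and 4269 in controls and 3379, 2967 and 2649 in knockouts. Controls were close together, and the knockouts were all lower and more spread. It fell by 30.2%, from 4295 ± 22.7 to 2998 ± 366 (log2 difference -0.53 ± 0.09, adjusted p = 0.00169). Both calls held with each library left out in turn, with adjusted p up to 0.00667 for Car9 and 0.0281 for Slc16a3. Car12, a second membrane carbonic anhydrase, was close to the limit of detection with 10, 19 and 17 against 14, 20 and 7 (adjusted p = 0.795).

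Without both libraries numbered 3, leaving 2 female-pattern libraries per genotype, 0 of the 34 genes passed in either direction, and 0.0507% of genes tested rose and 0.0868% fell. The targeted gene Rbpms2 lost its call in this setting as well, while Rbpms kept it. Whether calls were lost through fewer libraries or through the libraries left out was not tested. The differences themselves were then -1.45 for Car9 (adjusted p = 0.121), -0.44 for Slc16a3 (adjusted p = 0.2197) and -0.45 for Egln1 (adjusted p = 0.3696). GC content moved with genotype too. Over well-expressed coding genes, the deviation of a gene from its mean had a Spearman's rho with GC content of 0.22 to 0.40 in controls and -0.59 to 0.13 in knockouts, and its part in the results was not tested beyond the removal of the trend. With each library's trend in GC content and transcript length removed, the calls held with smaller differences: -1.25 for Car9, -0.42 for Slc16a3 and -0.33 for Egln1.

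**Figure D2:**
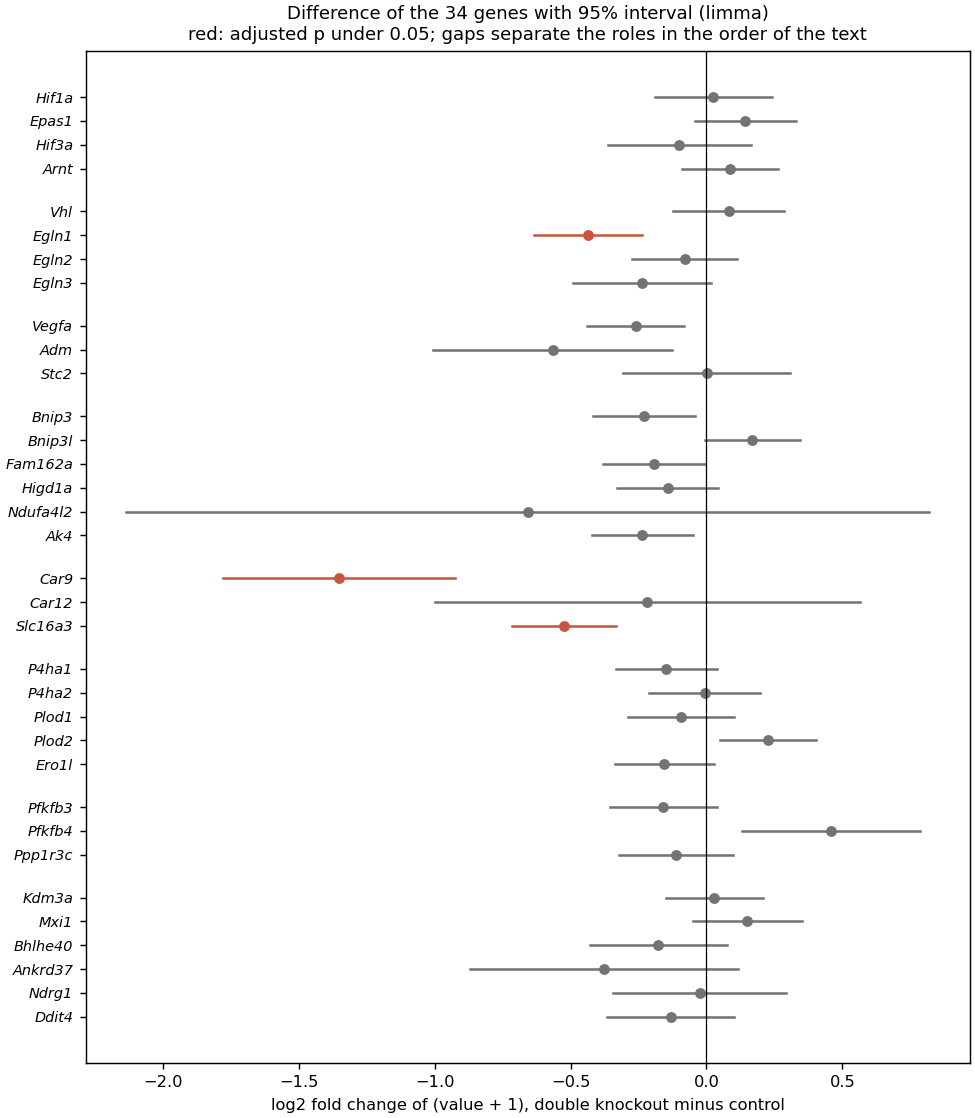
Log2 fold change (knockout minus control, horizontal axis) with its 95% interval for each of the 34 genes, grouped by role. The 3 genes past the threshold (red) are Egln1 at -0.44, Car9 at -1.35 and Slc16a3 at -0.53.

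HIF binds DNA at the cores ACGTG and GCGTG, so the letters before the starts of the genes were examined. Windows of 250 bases before each start were taken from RefSeq (GRCm38.p6, the assembly of mm10), and 28 of the 34 genes matched. The genes not matched were Epas1, Bnip3l, Ndufa4l2, Plod2, Bhlhe40 and Ndrg1. Either core, on either strand, was present in at least 1 window of 26 of the 28 genes (92.9%), of 41.5% of all 27025 genes in the table and of 62.3% of the well-expressed coding genes. ACGTG was in 18 of the 28 genes, against 18.5% and 25.4%, and GCGTG in 21 of the 28, against 30.9% and 50.9%. ACGTG overlaps the E-box CACGTG of other factors, where it reads on both strands. The 34 genes were chosen in large part as known HIF targets, so a high share describes that choice. Among the genes that did not pass the test, 23 of 25 held a core, as did the 3 that fell. With a core in nearly all of these genes, its presence could not have separated the groups.

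The windows of the 3 genes that fell are shown first, followed by 3 that did not pass for comparison, 5′ to 3′ on the gene's strand, with every match to a core on either strand in capitals. The outermost start in GENCODE lies inside the window for Egln1 (at 124949324) and Car9 (at 43506966) and upstream of it for Slc16a3. The ACGTG of Egln1, the core of Car9 and both cores of Slc16a3 thus lie after that GENCODE start. Distances below are from the RefSeq start. The windows are chr8:124949255-124949504 on the minus strand (Egln1), chr4:43506776-43507025 on the plus strand (Car9), chr11:120948817-120949066 on the plus strand (Slc16a3), chr7:138909507-138909756 on the minus strand (Bnip3), chr8:45999851-46000100 on the minus strand (Ankrd37) and chr9:108991652-108991901 on the plus strand (Pfkfb4).
Egln1: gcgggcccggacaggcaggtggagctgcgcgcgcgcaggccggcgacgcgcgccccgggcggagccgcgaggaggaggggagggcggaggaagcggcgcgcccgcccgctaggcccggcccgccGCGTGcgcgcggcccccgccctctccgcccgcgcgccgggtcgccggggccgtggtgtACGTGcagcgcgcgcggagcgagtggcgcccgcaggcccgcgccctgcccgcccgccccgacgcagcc
Car9: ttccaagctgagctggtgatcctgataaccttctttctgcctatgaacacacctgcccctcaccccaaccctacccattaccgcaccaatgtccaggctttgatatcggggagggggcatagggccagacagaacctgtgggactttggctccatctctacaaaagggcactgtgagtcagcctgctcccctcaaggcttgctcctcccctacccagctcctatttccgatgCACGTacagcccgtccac
Slc16a3: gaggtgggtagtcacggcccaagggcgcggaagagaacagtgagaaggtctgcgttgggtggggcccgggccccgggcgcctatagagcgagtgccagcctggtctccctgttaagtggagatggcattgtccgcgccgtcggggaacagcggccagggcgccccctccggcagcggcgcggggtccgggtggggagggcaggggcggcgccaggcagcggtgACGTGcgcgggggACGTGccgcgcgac
Bnip3: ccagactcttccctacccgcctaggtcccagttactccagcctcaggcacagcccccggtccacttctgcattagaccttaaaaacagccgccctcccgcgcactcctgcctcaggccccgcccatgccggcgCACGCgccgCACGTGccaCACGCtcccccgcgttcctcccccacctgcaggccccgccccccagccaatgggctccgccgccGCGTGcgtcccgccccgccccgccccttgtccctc
Ankrd37: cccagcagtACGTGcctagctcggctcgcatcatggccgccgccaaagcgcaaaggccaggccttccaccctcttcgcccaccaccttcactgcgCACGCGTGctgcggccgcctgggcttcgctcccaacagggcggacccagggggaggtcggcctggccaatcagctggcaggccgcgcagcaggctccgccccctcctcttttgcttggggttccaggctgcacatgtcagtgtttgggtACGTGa
Pfkfb4: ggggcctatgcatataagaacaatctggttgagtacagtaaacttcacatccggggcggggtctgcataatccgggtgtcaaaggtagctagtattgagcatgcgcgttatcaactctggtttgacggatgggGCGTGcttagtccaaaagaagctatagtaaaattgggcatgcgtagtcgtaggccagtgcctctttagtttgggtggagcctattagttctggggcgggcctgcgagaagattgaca
Slc16a3 held 2 copies of ACGTG, 27 and 14 bases before the start, both on the gene's strand. Car9 held 1, 18 bases before the start and on the opposite strand, in a window with few CG pairs (5, against 51 for Egln1). Egln1 held GCGTG at 126 and ACGTG at 68 bases before the start. Bnip3 held 5 matches, and its 2 to ACGTG are the same CACGTG read on both strands. Ankrd37 held 4 and Pfkfb4 held 1. None of these genes passed the test, though Bnip3 was lower in every knockout. They are examples only: Fam162a, which did not pass either, held 6.

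**Figure D3:**
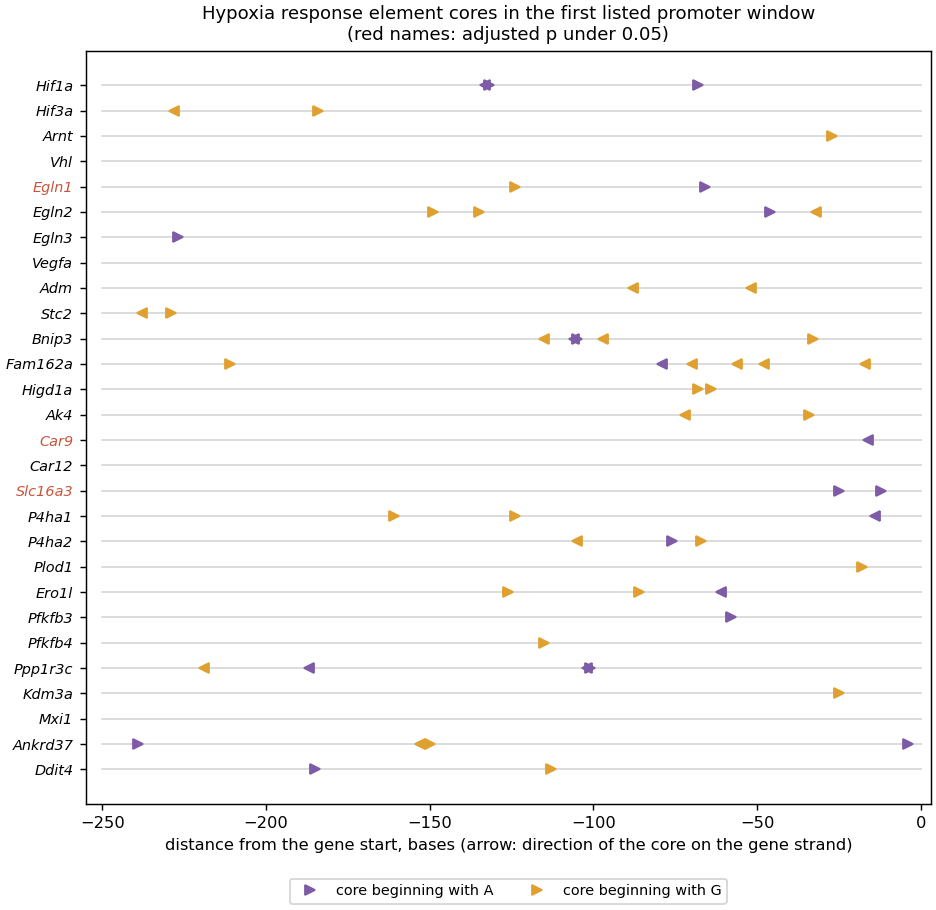
Distance in bases from the gene start (horizontal axis) of each hypoxia response element core in the first listed promoter window of the 28 matched genes; arrows give the direction, and colours tell cores beginning with A from those beginning with G. Cores lie before the RefSeq starts of genes that fell (red names) and of most genes that did not pass.

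Of the secreted factors, none of the 3 passed, although 2 were lower in every knockout. Vegfa, the principal angiogenic factor, had 3223, 3144 and 3110 in controls and 2890, 2476 and 2560 in knockouts, with no overlap. Its difference was -0.26 ± 0.09 (interval -0.44 to -0.08, adjusted p = 0.0910), and it passed only without knockout 1 (adjusted p = 0.0399). Adm, the gene of the vasodilator adrenomedullin, had 63, 57 and 68 against 53, 42 and 33. The knockouts were again all lower, but at so few reads the interval was wide (-0.57, from -1.01 to -0.13, adjusted p = 0.140). Stc2, a secreted glycoprotein of mineral balance and stress, had 139 to 196 in controls and 150 to 184 in knockouts (adjusted p = 1).

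None of the 6 mitochondrial and mitophagy genes passed. Bnip3, a mitophagy receptor of the outer membrane, had 1751, 1627 and 1709 in controls and 1548, 1298 and 1499 in knockouts. Bnip3l, its paralog, had 2542, 2699 and 2567 against 2784, 2870 and 3132. Every knockout was below every control for Bnip3 and above every control for Bnip3l. Neither passed: the difference was -0.23 (interval -0.42 to -0.04, adjusted p = 0.159) for Bnip3 and 0.17 (interval -0.01 to 0.34, adjusted p = 0.282) for Bnip3l. Whether the paralogs differ from each other in their response was not tested. Ak4, a mitochondrial adenylate kinase, had 1515, 1475 and 1527 against 1399, 1158 and 1287, all knockouts lower (-0.24, adjusted p = 0.145). Fam162a, linked to mitochondrial cell death (-0.19, adjusted p = 0.254), and Higd1a, a respiratory chain assembly factor (-0.14, adjusted p = 0.4098), overlapped between genotypes. Ndufa4l2, which takes the place of a respiratory subunit at low oxygen, had 37, 48 and 58 against 52, 43 and 11. Knockout 3 alone was low, and the interval from -2.14 to 0.82 was the widest of the 34.

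The collagen hydroxylases and the folding oxidase also held no call among 5 genes. They were P4ha1 and P4ha2 (prolyl 4-hydroxylase subunits), Plod1 and Plod2 (lysyl hydroxylases) and Ero1l, which reoxidises protein disulfide isomerase in the endoplasmic reticulum. Plod2 was the one with no overlap: 1436, 1531 and 1386 in controls against 1624, 1767 and 1696 in knockouts (0.23, interval 0.05 to 0.40, adjusted p = 0.144). Its knockouts were higher, unlike those of most of the 34. The others lay between -0.15 and -0.01. Ero1l had 2103, 2118 and 1981 against 1824, 1737 and 2018, with only knockout 3 among the controls (adjusted p = 0.351). It passed with the GC and length trend removed (-0.27, adjusted p = 0.0115).

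Among genes that steer sugar use, Pfkfb3 and Pfkfb4 lay on opposite sides of 0. They encode isoforms of the enzyme that makes and removes fructose 2,6-bisphosphate, the activator of phosphofructokinase. Pfkfb4 had 89, 86 and 100 in controls and 141, 130 and 109 in knockouts, all higher. The difference of 0.46 (interval 0.13 to 0.79) was the highest of the 34 and missed the threshold (adjusted p = 0.107), which it passed with the GC and length trend removed (0.56, adjusted p = 0.0278). Pfkfb3, the isoform that favours synthesis, had 715, 720 and 772 against 728, 628 and 625 (-0.16, adjusted p = 0.382). Ppp1r3c, which directs phosphatase 1 to glycogen, had 2764, 2680 and 2758 against 2682, 2114 and 2851 (-0.11, adjusted p = 0.574), where knockout 2 was the lowest and knockout 3 the highest of the 6.

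No gene of transcription, chromatin or signalling passed, and in all 6 the genotypes overlapped. Kdm3a, a histone demethylase (0.03, interval -0.15 to 0.21), and Ndrg1, a stress-responsive differentiation gene (-0.03, interval -0.34 to 0.29), were nearest to 0. Mxi1, an antagonist of MYC, was at 0.15 and Bhlhe40, a transcriptional repressor of the circadian clock, at -0.18. Ddit4, an inhibitor of mTOR complex 1, was at -0.13. Ankrd37, an ankyrin repeat gene much used as a HIF marker, had 55, 35 and 66 against 38, 43 and 35, and control 2 was as low as the knockouts (-0.38, interval -0.87 to 0.12). These 6 had adjusted p from 0.414 to 0.947.

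Across the 34 genes the genotypes did not overlap in 11, with 8 lower and 3 higher (Plod2, Bnip3l and Pfkfb4) in all knockouts. Of all genes tested, 21.7% did not overlap. The genotypes overlapped in 23 of the 34 and in 8035 of the 11913 well-expressed coding genes, which are similar shares. The shares lower and higher in all knockouts were 23.5% and 8.82%. These stand against 10.6% and 11.1% of all genes tested, and 17.6% and 15.0% of the well-expressed coding genes. The knockout libraries were not alike. The median log2 deviation of the 34 from the control mean was -0.04 in knockout 1, -0.12 in knockout 2 and -0.20 in knockout 3. Knockout 1 was the highest of the 3 knockouts for 16 genes and knockout 3 the lowest for 16. Knockout 3 was also the highest for 10 genes, and knockout 2 for 9. Spearman's rho with GC content over well-expressed coding genes fell in the same order, at 0.13, -0.18 and -0.59. The same median over all genes was not computed, and a link to GC content was not tested. Relative SD was greater among knockouts than among controls for 26 of 34 genes (76.5%), as it was for 67.1% of the well-expressed coding genes.

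**Figure D4:**
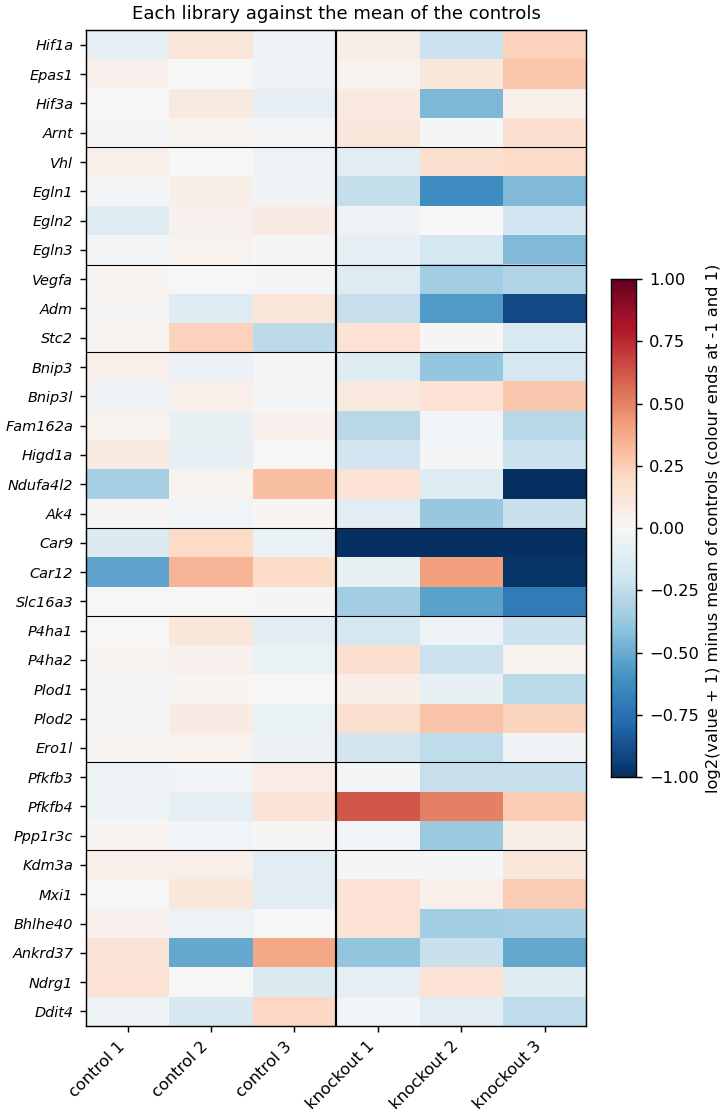
Log2(value + 1) minus the mean of the controls for each of the 34 genes (rows, by role) in each library (columns), with colour ends at -1 and 1. Car9 is low in all 3 knockouts, and the median deviation is -0.04, -0.12 and -0.20 in knockouts 1 to 3.

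Other proteins of the pathway were listed for their known part in HIF assembly, co-activation and turnover. They gave 2 higher and 1 lower of 24, with a median of -0.02, where 2.31% of all genes tested rose and 2.55% fell. Arnt2, a paralog of Arnt that can also pair with alpha subunits, rose from 236, 340 and 267 to 420, 495 and 448 (0.70 ± 0.13, adjusted p = 0.00205). Every knockout lay above every control, and the call held with each library left out, but not without the robust option or without both libraries numbered 3. Wsb1, a ubiquitin ligase subunit, rose, with 3157, 3168 and 3001 in controls against 3659, 3902 and 3940 in knockouts (0.30, adjusted p = 0.0380). Ncoa1, a nuclear receptor co-activator, fell, with 813, 887 and 869 against 718, 538 and 679 (-0.42, adjusted p = 0.0252). Both of these calls were lost when control 1, 2 or 3 or knockout 2 or 3 was left out, with adjusted p up to 0.205 for Wsb1 and 0.144 for Ncoa1. Hif1an, which blocks HIF co-activator binding, Cited2, a competitor for the co-activators, and the co-activators Ep300 and Crebbp did not pass.

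Of 39 other tested genes known to be induced by HIF, 0 rose and 17 fell, a share of 43.6%, with a median of -0.32. Of all genes tested 2.55% fell, and of the well-expressed coding genes 4.74%. Without both libraries numbered 3, 0 of the 39 fell. At an unadjusted p under 0.05, 5 of the 39 lay higher and 20 lower, 64.1% together. That share was 18.7% of all genes and 28.3% of the well-expressed coding genes. Epo, the classical HIF target of kidney and liver, was at 0 in every library. From glucose uptake to lactate, 11 of 16 genes fell and all 16 lay below 0 (median -0.39), a direction already known for glycolysis in these data and so no independent support. Slc2a1, the glucose transporter GLUT1, fell from 11982, 12237 and 12452 to 7364, 5946 and 4640 (-1.06, adjusted p = 0.000722), and every knockout lay far below every control. The enzyme genes named with it fell by less: Pfkl, of the liver-type phosphofructokinase, with a difference of -0.90 (adjusted p = 9.30e-06), Eno1, an enolase, of -0.78 (adjusted p = 4.48e-05) and Pgam1, a phosphoglycerate mutase, of -0.58 (adjusted p = 0.000329). The 5 of the 16 that did not pass were Slc2a3, a second glucose transporter (-0.35), Aldoc, an aldolase (-0.11), and Pgk1, Pkm and Ldha (-0.13 to -0.10). Of the 23 other targets tested, 6 fell (26.1%) and 0 rose, with a median of 0.0029. The 6 were Pdk1, Gys1, Kdm4b, Rora, Rcor2 and Nampt. This split of the list was made after its values were seen, and the lists were not tested against each other.

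**Figure D5:**
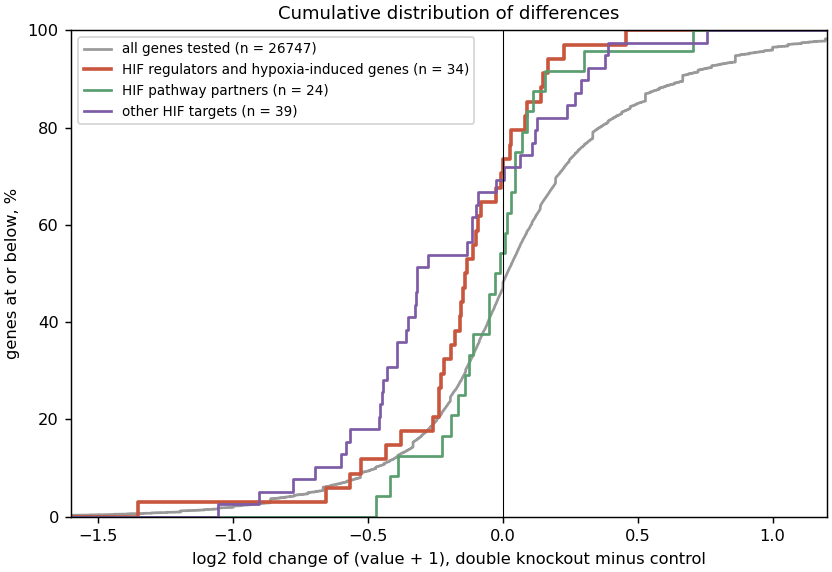
Percentage of genes at or below a given log2 fold change (knockout minus control) for the 34 genes (red), the pathway partners (green), other HIF targets (purple) and all 26747 genes tested (grey). The medians are -0.14, -0.02, -0.32 and 0.02.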

How the data were processed

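Polyadenylated RNA of 6 heart libraries was sequenced, and the deposited table gives 1 column per library. Its deposited values, the authors' own, are treated as a score: read counts that were scaled for each library and then rounded, as judged from near-equal totals (19770390 to 20215282) and from whole numbers that never occur in some libraries. Single reads and exact depths were not recovered, so no count model was used. Tools listed in the submitters' processing notes, without roles, are featureCounts 1.5.0, STAR 2.4.2a, Trimmomatic, DESeq and DESeq2, and the build is mm10. Which annotation and strand setting were used was not stated in these sources.

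The test was limma 3.58.1 (R 4.3.3), two-sided, on log2(value + 1) of the 26747 genes whose mean reached 1 in either genotype. Its empirical Bayes step used the trend and robust options, with Benjamini-Hochberg adjustment over all genes tested. Differences on this scale understate changes of low genes. The functions were tested on simulated data. Positions, exon length and GC content came from GENCODE M21 (GRCm38, the assembly of mm10), which held 99.3% of the identifiers. Promoter sequences came from RefSeq (GRCm38.p6). The 34 genes, the other lists and the tests were chosen with earlier results of these data known. Every one of the 34 was named, with each library's value for the regulators and for genes past the threshold. Of the other lists the rule named the 4 genes with the lowest adjusted p past the threshold, and genes named beyond it were chosen after their values were seen. Alternatives were other scalings, pseudocounts, filters, moderation without the robust option, removal of a GC and length trend (natural splines with 5 degrees of freedom, from coding genes of mean 50 or more), replicate number as a block, and leaving libraries out.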

Additional observations from a re-analysis of the deposited data

How the results depend on the processing

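Of the 34 genes, 16 kept their direction and their side of the threshold in all 17 alternatives, and these 16 had no call. Over the 578 values of single genes under alternatives, 527 kept both, 7 lost a call, 6 gained one and 38 changed sign. The lost calls were 5 of Egln1 and 1 each of Car9 and Slc16a3. All sign changes were of genes without a call. Precision is limited by 3 libraries per genotype and, for Car9, Adm, Car12, Ankrd37 and Ndufa4l2, by few reads.

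The number of the 34 genes that fell was 3, and 2 to 4 with each library left out, 5 with the replicate block and the GC and length trend removed, and 0 without both libraries numbered 3. The number that rose was 0, and 1 (Pfkfb4) with the GC and length trend removed, with or without the block. Over all genes, 618 rose and 681 fell. Without the robust option these were 144 and 206, and without both libraries numbered 3 they were 14 and 24. With no filter 963 rose. With each library left out 186 to 608 rose and 234 to 739 fell, the totals being lowest without control 1, control 3 or knockout 3. Of the pathway partners, 2 rose and 1 fell. Both counts were 0 without the robust option and without both libraries numbered 3, and with each library left out 1 to 2 rose and 0 to 1 fell. With no filter 3 fell. Of the other HIF targets, 17 fell and 0 rose. Without the robust option 5 fell, with each library left out 6 to 16 fell and 0 to 2 rose, and without both libraries numbered 3 none (0) fell. With no filter 3 rose. The causes were not tested.

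The labels do not say whether replicate numbers pair the samples. The correlation of deviations between same-numbered libraries was 0.05, 0.07 and 0.33, and not every library correlated best with its own number. The highest, 0.33, was between the libraries numbered 3, which share a male pattern. With the replicate block the 3 calls among the 34 genes held. Of the partners 1 rose and 2 fell, and of the other targets 1 rose, as it did with the block and the GC and length trend removed. Bnip3 passed only with the block and the trend removed together (-0.32).

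Some differences changed sign, and those of Ndufa4l2 and Car12 moved most. With the GC and length trend removed, with or without the block, Hif1a was at -0.0944, Egln2 at 0.0511, P4ha2 at 0.0666, Kdm3a at -0.0312, Ndrg1 at 0.013 and Ddit4 at 0.0011. Without both libraries numbered 3, Hif1a was at -0.0943, Egln2 at 0.015, Stc2 at -0.0538, Ndufa4l2 at 0.16, Car12 at 0.26, Kdm3a at -0.0643 and Ddit4 at 0.0343. Stc2 was at -0.0021 with median-of-ratios scaling and P4ha2 at 0.0096 with equal totals. With each library left out, differences ran from -0.0766 to 0.15 for Hif1a, -0.20 to 0.0742 for Hif3a, -0.13 to 0.12 for Stc2, -1.06 to 0.012 for Ndufa4l2, -0.53 to 0.17 for Car12, -0.0896 to 0.0985 for P4ha2, -0.20 to 0.017 for Ppp1r3c, -0.0229 to 0.0561 for Kdm3a and -0.11 to 0.0473 for Ndrg1.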
